A study of Mus musculus with 14 samples.

Results

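C1q macrophages are described here across 7 white nodules of the Eif3e cKO mouse, the tissue masses that these animals develop in liver, lung, spleen and thymus. The cells were chosen from the raw counts by 4 conditions: mitochondrial (mt-) UMIs of at most 10% of the cell, at least 2 of the 3 genes C1qa, C1qb and C1qc detected, at least 1 of the 4 genes Csf1r, Adgre1, Cd68 and Fcgr1 detected, and no UMI of Cd3d, Cd3e or Cd3g. A UMI is 1 captured transcript molecule of 1 cell. In all, 1529 of 75548 cells past the mt filter met the conditions. Mouse 27 held 142 of them, mouse 29 held 501, mouse 31 held 253, mouse 33 held 536, mouse 34 held 79, mouse 32 held 17 and mouse 30 held 1.

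C1q is the recognition subunit of the classical complement pathway, built from the products of 3 adjacent genes. It binds antibody on a target, dying cells and other surfaces, and then starts the complement cascade. Most C1q is made by macrophages and dendritic cells rather than by the liver, and macrophages rich in C1q are known in tumors, where they clear dead cells, present antigen and secrete chemokines. Resident macrophages of liver (Kupffer cells), lung and splenic red pulp carry C1q together with genes particular to each tissue.

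All mice were of C57BL/6J background, and each nodule came from, or held transferred cells of, a mouse with floxed Eif3e. This gene encodes part of the eIF3 complex that starts translation. These mice also had Cre placed in the Ighg1 locus, which is active in germinal centre and class-switched B cells and not in macrophages. From each nodule 1 library profiled the RNA of single cells and a second one the rearranged antigen receptors (V(D)J), which were those of B cells in 5 mice (BCR nodules) and those of T cells in 2 mice (TCR nodules). The BCR nodules were a liver nodule (mouse 27, 12 months old), a lung nodule (mouse 29, 12 months), a spleen nodule (mouse 31, 13 months), a thymus nodule (mouse 33, 16 months) and one of lung and thymus (mouse 34, 9 months), and the TCR nodules came from liver (mouse 30, 14 months) and spleen (mouse 32, 12 months). Mice 29, 31, 32 and 34 also carried a Cre-dependent YFP reporter at Rosa26. By the study's account the mass from mouse 27 was a secondary tumor of an immunodeficient Rag2-/- recipient, and mouse 34 was a chimera of JHT and cKO bone marrow. Recipient or JHT cells of these nodules, macrophages possibly among them, carry no floxed Eif3e. The age given for mouse 27 exceeds that of transfer recipients in the study's methods. Receptor and site are tied, since all thoracic nodules (lung, thymus) are BCR nodules. No sample of a healthy animal, or of one without cKO cells, was analysed here. Each nodule has its own mouse number, though those of mice 27 and 34 hold cells of more than 1 animal. The mouse is thus the replicate, and n is 5 against 2 for the receptor and 1 against 1 for liver or spleen.

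The conditions chose cells by their macrophage genes, so the following values describe the choice. Summed over the 6 marker genes C1qa, C1qb, C1qc, Csf1r, Adgre1 and Vsig4, members of the BCR nodules had 4005 to 8572 counts per 1000000 member UMIs (CPM), against 6.19 to 18.9 CPM in cells with a V(D)J call of the same nodules. C1qa was at 2414 CPM for mouse 27, 820.5 for mouse 29, 2755 for mouse 31, 2299 for mouse 33 and 2174 for mouse 34. C1qb stood at 3075 CPM for mouse 27, 1675 for mouse 29, 3001 for mouse 31, 2928 for mouse 33 and 3240.2 for mouse 34, and C1qc at 2416 CPM for mouse 27, 1295 for mouse 29, 2277 for mouse 31, 2442 for mouse 33 and 2615 for mouse 34. Mouse 29 was lowest for each of the 3 genes. Csf1r, the receptor that macrophages need to survive, was at 523 CPM for mouse 27, 169.9 for mouse 29, 510.3 for mouse 31, 303 for mouse 33 and 267 for mouse 34. Vsig4, a complement receptor of resident macrophages, was the one marker close to absent: it had 25 UMIs in 9 members of mouse 27, 2 for mouse 29, 8 for mouse 33 and none in mice 31, 34 and 32. Just inside the limits lay 190 members with exactly 2 C1q genes, with a median of 5 C1q UMIs, while the 1339 members with all 3 had a median of 32. Just outside lay 252 cells that failed only for having 1 C1q gene, 486 that had no macrophage gene, 140 that had Cd3 UMIs and 4 that were over the mt limit.

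C1qa, C1qb and C1qc lie side by side on chromosome 4 (GRCm38.p6, RefSeq), C1qb from 136880126 to 136886200, C1qc from 136889801 to 136892936 and C1qa from 136895916 to 136898844. The start regions of C1qb and C1qc are shown because the cells were chosen by these genes. They cover 250 bases before to 50 after the start on the minus strand, chr4:136886151-136886450 for C1qb and chr4:136892865-136893164 for C1qc. Capitals mark GAGGAA or its reverse complement, the core that the macrophage factor PU.1 reads, and in C1qb also TGCTGA, a MAF half-site.
C1qb: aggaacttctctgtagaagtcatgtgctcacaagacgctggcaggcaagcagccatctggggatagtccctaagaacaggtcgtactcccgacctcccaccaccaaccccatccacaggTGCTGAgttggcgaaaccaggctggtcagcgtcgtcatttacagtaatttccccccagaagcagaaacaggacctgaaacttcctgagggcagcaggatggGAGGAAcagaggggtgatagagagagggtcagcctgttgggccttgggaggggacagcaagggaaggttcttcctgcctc
C1qc: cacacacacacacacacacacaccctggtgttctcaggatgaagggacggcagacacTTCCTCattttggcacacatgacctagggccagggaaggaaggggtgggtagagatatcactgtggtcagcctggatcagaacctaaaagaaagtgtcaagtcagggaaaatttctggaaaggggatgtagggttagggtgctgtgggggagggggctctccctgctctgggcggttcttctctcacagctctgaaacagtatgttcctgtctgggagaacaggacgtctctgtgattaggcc
GAGGAA on either strand was present in 28.3% and TGCTGA in 19.5% of 32851 mouse start regions of this length, so both matches are common letters.

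The median member held 4139 to 6412 UMIs in the BCR nodules, 10461 in mouse 32 and 819 in the 1 cell of mouse 30. These medians were above the median over all cells of the same library in mice 27, 29, 32, 33 and 34 and below it in mouse 31 (4139 against 4265) and mouse 30 (819 against 1364). C1q-negative phagocytes were deeper than members in each nodule but that of mouse 27, with 8270 against 4139 UMIs in mouse 31, and cells with a V(D)J call were deeper in all 5 BCR nodules. Summed over members, the BCR nodules gave 645012 to 3730712 UMIs and mouse 32 gave 153558, so that 3 UMIs, taken as the floor of detection, correspond to 0.804 to 4.65 CPM in the BCR nodules and to 19.5 CPM in mouse 32. The single member of mouse 30 gives no usable level of any gene. Cell barcodes were shared between any 2 libraries in 96 to 286 cases (1.2% to 2.28%).

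Immunoglobulin transcripts were found both in members and in T cells of the same nodule. In mouse 27 the light chain segment Igkv3-12 was at 1571 CPM in members, 10950 CPM in cells with a V(D)J call and 4337 CPM in T cells, taken here as cells with a Cd3 UMI. In mouse 31 the segment Igkv3-10 was at 597 CPM in members and at 5054 and 2101 CPM in the same other classes. T cells of the same nodule thus held more of the segment than members did. A V(D)J call was attached to 31 of the 1529 members. Cd79a, part of the B cell receptor complex, was in members at 217 CPM for mouse 27, 25.3 for mouse 29, 85.4 for mouse 31, 23.6 for mouse 33 and 422 for mouse 34, low in mice 29 and 33 and highest in mouse 34. The summed level of 6 neutrophil markers in members ran from 15.4 to 729 CPM, with mouse 29 highest. Hepatocyte markers stayed at or below 2.06 CPM and Alb, Apoa1, Ttr and Fgb were at 0 in the members of all 5 BCR nodules, liver included.

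C1q macrophages were far more frequent in the BCR than in the TCR nodules. They made up 1.51% (95% exact binomial interval 1.27 to 1.78) of the cells of mouse 27, 3.56% (3.26 to 3.88) of mouse 29, 2.23% (1.96 to 2.51) of mouse 31, 5.37% (4.93 to 5.83) of mouse 33 and 1.15% (0.912 to 1.43) of mouse 34. The TCR nodules held 0.00954% (0.000241 to 0.0531) in mouse 30 and 0.127% (0.0741 to 0.204) in mouse 32. Of the 79 members of mouse 34, 55 held a UMI of B cell genes. Without such members the lowest share of a BCR nodule was 0.349%, against at most 0.112% in a TCR nodule. Every BCR nodule lay above both TCR nodules, and the plot of shares by mouse shows the gap. The means were 2.76% ± 1.72 (SD, n = 5) and 0.0683% ± 0.0832 (SD, n = 2), a difference of -2.69 percentage points (two-sided exact permutation test, p = 0.0952, the smallest p that the 21 splits of 7 mice allow). The design cannot reach 0.05. Within a site the same order held: the liver nodule of mouse 27 had 158 times the share of the liver nodule of mouse 30 (95% interval 28.0 to 6302) and the spleen nodule of mouse 31 had 17.5 times that of mouse 32 (10.7 to 30.5). These intervals cover counting error only.

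The same gap was present among phagocytes, a share that leaves out cells with Cd3 UMIs but has no condition against B cells. C1q-negative phagocytes were taken as cells with a macrophage gene and Lyz2 (lysozyme, made by macrophages and neutrophils) but no C1q or Cd3 UMI, and there were 33, 413, 55, 76 and 37 of them in mice 27, 29, 31, 33 and 34, 56 in mouse 30 and 193 in mouse 32. C1q macrophages made up 81.1% of phagocytes for mouse 27, 54.8% for mouse 29, 82.1% for mouse 31, 87.6% for mouse 33 and 68.1% for mouse 34. They were 1.75% in mouse 30 and 8.10% in mouse 32. Again the groups did not overlap, with means of 74.8% ± 13.2 (SD, n = 5) and 4.92% ± 4.48 (SD, n = 2) and a difference of -69.8 percentage points (two-sided exact permutation test, p = 0.0952, the smallest possible). Many C1q-negative phagocytes carried 10 or more UMIs of the neutrophil genes S100a8 and S100a9: 128 of 193 for mouse 32, 19 of 56 for mouse 30 and 241 of 413 for mouse 29, but 2 to 4 in each of the other nodules. Without these cells the shares were 83.0%, 73.9%, 83.2%, 87.9% and 70.3% in the BCR nodules (mice 27, 29, 31, 33 and 34), 2.63% in mouse 30 and 20.7% in mouse 32, an alternative chosen after seeing the data. Depth was not equal, since a deeper cell passes the conditions more easily. As an alternative, cells under 1000 UMIs were left out and every other cell was thinned to 1000 UMIs. Members were then 1.23%, 1.75%, 1.2%, 2.78% and 0.739% of cells in mice 27, 29, 31, 33 and 34 and 0.0546% in mouse 32. In mouse 30 they were 0 of 7412 cells, which allows a share of up to 0.0498%. The 1 member of mouse 30 had 819 UMIs, so that 0 was fixed by leaving out shallow cells.

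**Figure D1:**
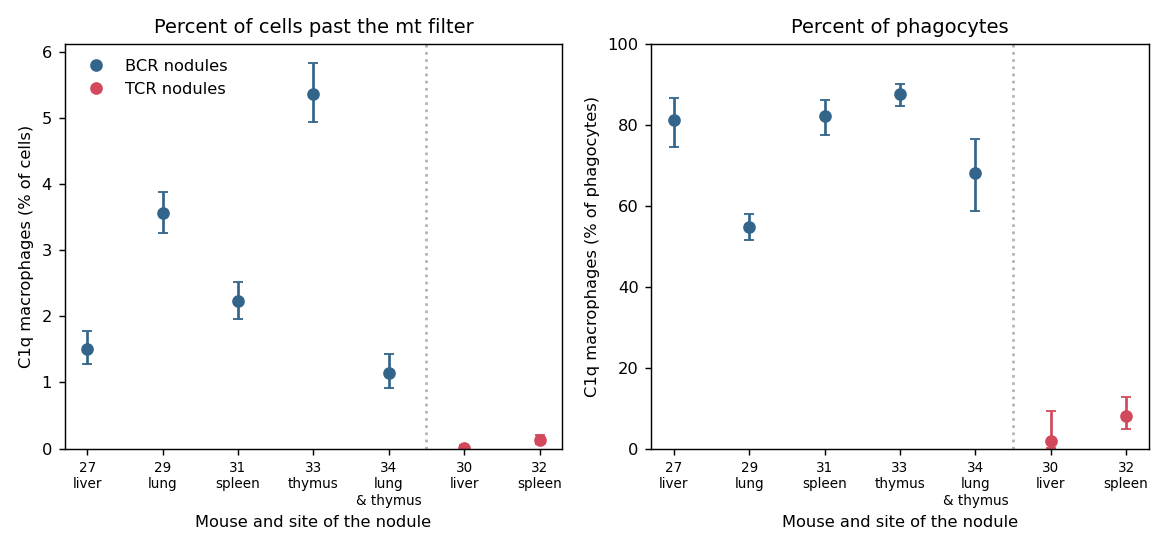
Share of C1q macrophages in each of 7 nodules, on the left as percent of all cells past the mt filter and on the right as percent of phagocytes. Points are single mice, bars are 95% exact binomial intervals (counting error only), blue are BCR and red TCR nodules; on the left the 5 BCR nodules lie between 1.15% and 5.37% and the 2 TCR nodules at 0.00954% and 0.127%.

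Eif3e itself was at 103 CPM for mouse 27, 72.5 for mouse 29, 90.7 for mouse 31, 87.7 for mouse 33 and 115 for mouse 34 in members, and 156 CPM in mouse 32. C1q-negative phagocytes of the BCR nodules had 117 to 218 CPM, and the cells with a V(D)J call in these nodules had up to 236 CPM. In each BCR nodule the level in members lay below that of both other classes. The C1q-negative class also held transcripts of B cell and neutrophil genes, and their part in its Eif3e level was not tested. Cre is not driven in macrophages, and the total count of the gene does not tell a floxed from a deleted allele, so these values check no label. Of the 13 eIF3 subunits 10 were lowest in mouse 29, against 35.2% of all genes tested, and their median fold of 1.83 from the lowest to the highest nodule was close to the 1.81 of all genes.

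Which genes set members apart from C1q-negative phagocytes was described with no test, since the conditions sorted both classes. The C1q-negative class has no condition against B cells or neutrophils. In the BCR nodules its 6 B cell markers summed to 116 to 2131 CPM, against 87.1 to 1270 CPM in members. Its 6 neutrophil markers summed to 432 to 25160 CPM, against 15.4 to 729 CPM in members. Both sums were above those of members in each BCR nodule, and their part in the following ratios was not tested. Genes at 50 CPM or more in members of every BCR nodule were ranked by their lowest ratio over the 5 nodules. Apoe, which carries lipid out of cells, led with 10.7 to 81.7 times the level of C1q-negative phagocytes of the same nodule (10 CPM added to both). Apoe was at 9665 CPM for mouse 27, 12150.5 for mouse 29, 8509.6 for mouse 31, 2877 for mouse 33 and 6005 for mouse 34 in members. Ms4a7, a membrane protein typical of resident macrophages, followed with 6.82 to 19.0 times. Il18bp, which binds and blocks interleukin 18, reached 6.31 to 32.7 times, and the acid phosphatase Acp5 6.16 to 24.9 times. Others of the first 20 were the lysosomal proteases Ctsb and Ctsd, the lipid exporter Abca1, the adhesion molecule Vcam1, the receptor for dying cells Mertk and the selenium carrier Selenop. Mertk was at 226 CPM for mouse 27, 253 for mouse 29, 63.8 for mouse 31, 205 for mouse 33 and 135 for mouse 34.

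**Figure D2:**
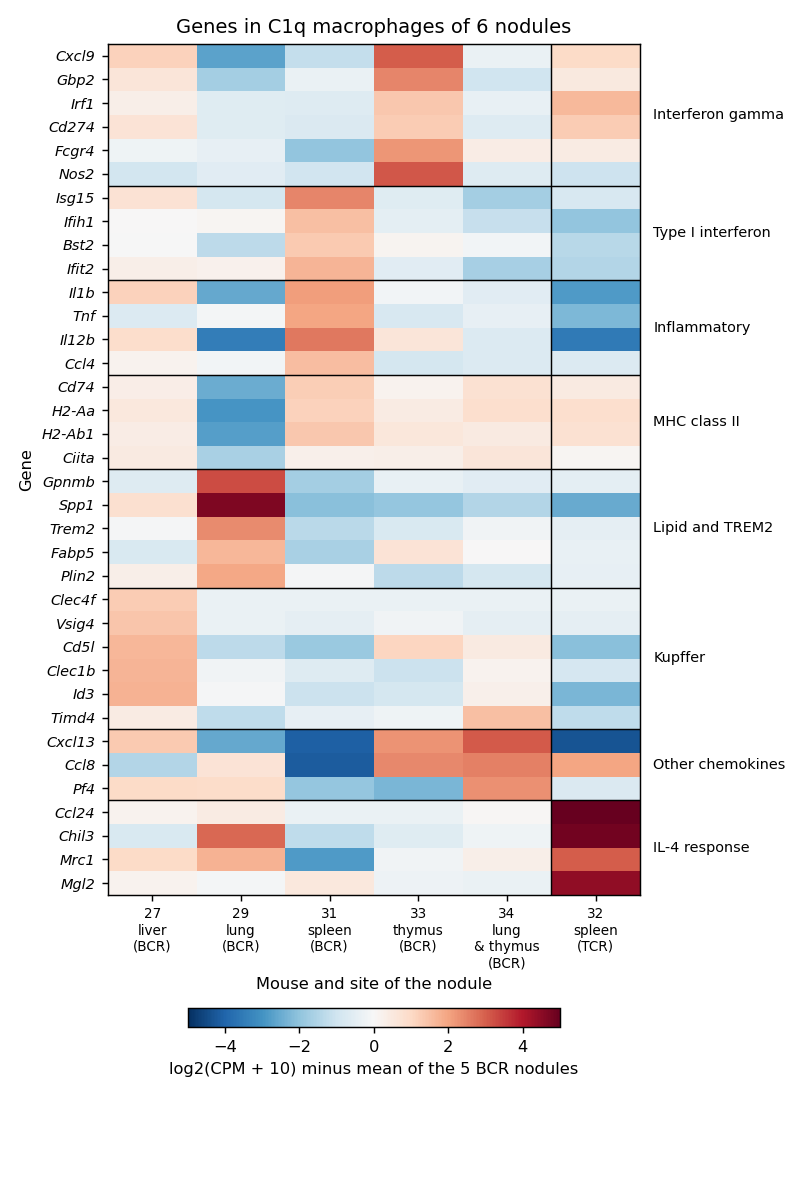
Levels of 36 list genes in C1q macrophages of 6 nodules. Colour gives log2 of CPM + 10 minus the mean of the 5 BCR nodules (red higher, blue lower); rows are grouped by function, columns are mice, and the right column is the TCR nodule of mouse 32 with 17 cells. Red blocks stand for interferon gamma genes in mouse 33, type I interferon and inflammatory genes in mouse 31 and lipid genes in mouse 29, and the MHC class II block of mouse 29 is blue.

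Members of the 5 BCR nodules differed from one another more in some gene lists than over all genes. Over 10989 genes tested, the fold from the lowest to the highest nodule (10 CPM added) had a median of 1.81, and 813 genes (7.4%) exceeded 4-fold. For the 19 genes of the interferon gamma list the median was 6.24 and 15 exceeded 4-fold. For the 11 MHC class II genes it was 8.55 with 11 over 4-fold, for the 16 chemokines 9.00 with 13, for the 16 genes of lipid handling and TREM2 6.72 with 11, for 15 type I interferon genes 6.0 with 9 and for 15 inflammatory genes 5.29 with 11. At the other end stood the eIF3 subunits with 0 of 13 over 4-fold. Each nodule is a single mass with its own mouse, site, age and treatment, so what belongs to the mouse and what to the site cannot be told apart.

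Interferon gamma genes were highest in mouse 33, the thymus nodule. Of the 19 genes of that list 17 had their highest level there, against 16.5% of all genes tested. Interferon gamma from T and NK cells makes macrophages express guanylate-binding proteins, the chemokine Cxcl9 that recruits T cells through Cxcr3, and the checkpoint ligand Cd274 (PD-L1). Cxcl9 was at 304 CPM for mouse 27, 12.3 for mouse 29, 52.1 for mouse 31, 1150.2 for mouse 33 and 101 for mouse 34. The level of mouse 33 was 3.79 times that of mouse 27, the next highest, and mouse 29 was lowest. Gbp2, a guanylate-binding protein, was at 132 CPM for mouse 27, 18.8 for mouse 29, 65.0 for mouse 31, 499.6 for mouse 33 and 37.2 for mouse 34. Irf1, a transcription factor induced by interferon, was at 252 CPM for mouse 27, 132 for mouse 29, 128 for mouse 31, 539.6 for mouse 33 and 159.7 for mouse 34. Mouse 33 was at the top for Gbp2 and Irf1, with mouse 27 next. Cd274 was at 366 CPM for mouse 27, 147 for mouse 29, 134 for mouse 31, 558 for mouse 33 and 143 for mouse 34. Mice 27 and 33 were high and the other three close together. Fcgr4, an activating receptor for IgG, was at 90.5 CPM for mouse 27, 77.0 for mouse 29, 19.9 for mouse 31, 529 for mouse 33 and 138 for mouse 34. Nos2, which makes nitric oxide, had few UMIs outside mouse 33, with 1.03 CPM for mouse 27, 3.90 for mouse 29, 0.585 for mouse 31, 166 for mouse 33 and 3.10 for mouse 34. The exceptions were Ciita, highest in mouse 34, and Cxcl10, shared with the type I response. Cxcl10 was at 1029 CPM for mouse 27, 400.3 for mouse 29, 2413 for mouse 31, 455 for mouse 33 and 378 for mouse 34, highest in mouse 31.

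The share of members with Cxcl9 followed its level. In mouse 33 it was found in 74.6% of members and 4.75% of T cells, whose median depths were 6152 and 4001 UMIs. In mouse 29 it was 2.00% and 0.745%, at 4835 and 1508.5 UMIs. Expected shares at 1000 UMIs per cell were 48.4% and 0.891% of members with at least 1000 UMIs in mice 33 and 29. Nos2 was in 22.4% of members of mouse 33 and 0.672% of its T cells. Members with Nos2 held Cxcl9 in 85% of cases and those without it in 71.6%, though the former were deeper, with medians of 7744 and 5795.5 UMIs.

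Type I interferon and inflammatory genes stood highest in mouse 31, the spleen nodule. The type I list had 8 of 15 genes highest there and the inflammatory list 9 of 15, against 16.2% of all genes. Isg15, a ubiquitin-like protein induced by interferon, was at 613 CPM for mouse 27, 196 for mouse 29, 2040.5 for mouse 31, 239 for mouse 33 and 107 for mouse 34. Ifih1, a sensor of double-stranded RNA, was at 602 CPM for mouse 27, 636 for mouse 29, 1678 for mouse 31, 421 for mouse 33 and 262 for mouse 34, and Bst2, which tethers budding virus, at 235 CPM for mouse 27, 91.0 for mouse 29, 596 for mouse 31, 260.0 for mouse 33 and 217 for mouse 34. Mouse 31 exceeded every other nodule for the 3 genes, while 9 of the 15 genes were lowest in mouse 34, against 13.7% of all genes. C1q-negative phagocytes of mouse 31 were also highest for the type I list, with a summed 2055 CPM against 433 to 1036 CPM in the other BCR nodules. For the inflammatory list this class was highest in mouse 29, with a summed 8774 CPM, and mouse 31 had 6299 CPM. Without members that held UMIs of B cell genes, 6 of 15 inflammatory genes were highest in mouse 31, against 17.5% of all genes. With members thinned to 1000 UMIs the count was also 6, against 17.9%. Ifnb1, the gene of interferon beta itself, was read in the same cells at 234 CPM for mouse 27, 70.8 for mouse 29, 670.0 for mouse 31, 20.6 for mouse 33 and 65.1 for mouse 34. It was carried by 57 of 253 members of mouse 31, of which 12 held 50% of its UMIs. Isg15, in contrast, is no mark of macrophages: it was found in 42.3% of members and 60.8% of T cells of mouse 31.

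Among cytokines, Il1b was at 966 CPM for mouse 27, 65.6 for mouse 29, 1867 for mouse 31, 396 for mouse 33 and 287 for mouse 34. Tnf was at 115 CPM for mouse 27, 176 for mouse 29, 784 for mouse 31, 105 for mouse 33 and 143 for mouse 34, and Il12b, the shared chain of interleukins 12 and 23, at 206 CPM for mouse 27, 0.650 for mouse 29, 722 for mouse 31, 165 for mouse 33 and 62.0 for mouse 34. Mouse 31 led for all 3, and mouse 29 had 2 UMIs of Il12b in 501 members. Il23a, the other chain of interleukin 23, was at 3.09 CPM for mouse 27, 0.975 for mouse 29, 74.3 for mouse 31, 5.90 for mouse 33 and 4.65 for mouse 34, again with mouse 31 on top. Ccl4, a chemokine for T and NK cells, was at 2223 CPM for mouse 27, 1790.4 for mouse 29, 5728 for mouse 31, 1075 for mouse 33 and 1223 for mouse 34. Il22ra2, a soluble protein that binds and neutralizes interleukin 22, was among members nearly private to mouse 31. It had 1898 UMIs in 127 of 253 members there (1111 CPM), 2 UMIs in members of mouse 27 and none in members of the other nodules. C1q-negative phagocytes had 236 CPM in mouse 31 and 129 CPM in mouse 27, and T cells of mouse 31 had 19.9 CPM. Epcam, an epithelial adhesion molecule, was at 145 CPM in members of mouse 31, in 62 cells, against 2.06 to 4.65 CPM in the other BCR nodules. In the same nodule C1q-negative phagocytes had 104 CPM, T cells 72.8 CPM and cells with a V(D)J call 44.1 CPM. C1q-negative phagocytes of the other BCR nodules had 20.9 to 170 CPM of Epcam, mouse 27 highest. Il22ra2, Epcam and Ifnb1 were picked after their values were seen.

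Start regions of interferon genes carry the letters that interferon regulatory factors bind. Isg15 is shown for the type I list (chr4:156200769-156201068, minus strand) and Gbp2 for the interferon gamma list (chr3:142620413-142620712, plus strand), GRCm38.p6 from RefSeq, with GAAANNGAAA or its reverse complement in capitals. Isg15 held 3 overlapping matches and Gbp2 held 1.
Isg15: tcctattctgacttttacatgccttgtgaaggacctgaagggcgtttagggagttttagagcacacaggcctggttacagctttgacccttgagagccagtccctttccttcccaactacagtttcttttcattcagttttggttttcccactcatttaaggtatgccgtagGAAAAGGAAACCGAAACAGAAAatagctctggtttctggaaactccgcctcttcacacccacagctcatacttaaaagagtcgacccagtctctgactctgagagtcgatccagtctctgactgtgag
Gbp2: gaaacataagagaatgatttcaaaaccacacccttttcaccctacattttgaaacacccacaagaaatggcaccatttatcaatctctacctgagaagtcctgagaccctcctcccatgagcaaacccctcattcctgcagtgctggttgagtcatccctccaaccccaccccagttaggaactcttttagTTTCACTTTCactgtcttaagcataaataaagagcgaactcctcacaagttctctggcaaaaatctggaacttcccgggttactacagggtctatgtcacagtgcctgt
The letters occurred in 3.44% of the 32851 start regions. Of the list genes with a start region in the table, 10 of 14 in the interferon gamma list and 8 of 14 in the type I list had a match, against 1 of 11 for macrophage identity, 0 of 12 for complement and 0 of 8 for MHC class II. A match is a description of letters, and no match says only that they are not in this window.

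MHC class II genes were lowest in mouse 29, the lung nodule, without exception: 11 of 11 had their lowest level there, against 35.2% of all genes tested. MHC class II displays peptides to helper T cells, and Cd74 is its chaperone. H2-Aa was at 3389 CPM for mouse 27, 294 for mouse 29, 5162 for mouse 31, 3139 for mouse 33 and 4149 for mouse 34. H2-Eb1 was at 2518 CPM for mouse 27, 292 for mouse 29, 4798 for mouse 31, 3200.2 for mouse 33 and 3118 for mouse 34, and Cd74 at 8371 CPM for mouse 27, 1179.9 for mouse 29, 15461 for mouse 31, 7478 for mouse 33 and 11225 for mouse 34. The other 4 nodules differed by at most 2.07 times for Cd74, while mouse 29 lay 6.34 times below the lowest of them. Ciita, the factor that switches these genes on, was at 52.5 CPM for mouse 27, 4.87 for mouse 29, 45.1 for mouse 31, 46.1 for mouse 33 and 60.5 for mouse 34. H2-Aa was detected in 43.1% of members of mouse 29 and in 87.4% to 95.7% of members of the other BCR nodules. Its share in T cells was 6.66% in mouse 29 and 22.6% to 45.1% in the others, so the level in free RNA or in other cells also differed. The class was not alone in this: the list summed to 833 CPM in C1q-negative phagocytes of mouse 29 against 11265 to 17452 CPM in the other BCR nodules. Cells with a V(D)J call had 3003 CPM in mouse 29 and 11849 to 20788 CPM in the others. Summed over 6 B cell markers, C1q-negative phagocytes had 116 CPM in mouse 29 and 885 to 2131 CPM in the others. Of the B cell genes, Ms4a1 was lowest in members of mouse 29 as well, at 9.10 CPM against 30.3 to 451 CPM in the other BCR nodules, while Cd79a was about as low in mouse 33 as in mouse 29. These genes were chosen after their values were seen, and the part of B cell RNA in the MHC class II difference was not tested. Without members that held UMIs of B cell genes, 9 of the 11 genes were lowest in mouse 29.

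Genes of lipid handling had their highest level in mouse 29: 14 of 16 genes of the list, against 16.2% of all genes. C1q-negative phagocytes of mouse 29 also stood highest, with a summed 8485 CPM against 408 to 3022 CPM in the other BCR nodules, while members had 26649 against 7080.1 to 13796 CPM. Gpnmb, a glycoprotein of lipid-laden and phagocytic macrophages, was at 168 CPM for mouse 27, 2649 for mouse 29, 76.7 for mouse 31, 208 for mouse 33 and 179.8 for mouse 34. Trem2, a lipid receptor that drives this state, was at 87.5 CPM for mouse 27, 508 for mouse 29, 29.8 for mouse 31, 49.6 for mouse 33 and 80.6 for mouse 34, and Spp1 (osteopontin) at 88.5 CPM for mouse 27, 1434 for mouse 29, 3.51 for mouse 31, 4.82 for mouse 33 and 10.9 for mouse 34. Mouse 29 exceeded the next nodule by 12.7 times for Gpnmb, 5.81 times for Trem2 and 16.2 times for Spp1. Fabp5, which carries fatty acids, was at 656 CPM for mouse 27, 3547 for mouse 29, 349.9 for mouse 31, 1800.2 for mouse 33 and 1115 for mouse 34, and Plin2, which coats lipid droplets, at 373 CPM for mouse 27, 1170.1 for mouse 29, 289.7 for mouse 31, 115 for mouse 33 and 161 for mouse 34. Fabp5 was next highest in mouse 33, at 1.61 times mouse 34. Gpnmb was in 85.4% of members of mouse 29 and 6.55% of T cells, and Spp1 in 52.1% and 14.3%. Selenop, the selenium carrier, was at 6223 CPM in mouse 29 and 372 to 2260.4 CPM in the other BCR nodules.

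Uptake of dying cells and lysosomal degradation partly followed. Of 18 genes for apoptotic cell uptake 10 were highest in mouse 29, against 16.2% of all genes, with Cd36, a scavenger receptor, at 88.5 CPM for mouse 27, 1061 for mouse 29, 21.7 for mouse 31, 20.1 for mouse 33 and 40.3 for mouse 34. Mfge8, which bridges dying cells to integrins, was at 2.06 CPM for mouse 27, 534 for mouse 29, 1.17 for mouse 31, 26.3 for mouse 33 and 27.9 for mouse 34. The lysosomal protease Ctsl was at 531 CPM for mouse 27, 3657 for mouse 29, 422 for mouse 31, 197 for mouse 33 and 456 for mouse 34, and Ctsk, which degrades collagen, at 12.3 CPM for mouse 27, 1488 for mouse 29, 0 for mouse 31, 14.7 for mouse 33 and 112 for mouse 34. Mouse 29 was far above the rest for these 4. Ctss, which trims the MHC class II chaperone, varied less, with 2923 CPM for mouse 27, 6530.0 for mouse 29, 2960.4 for mouse 31, 4009 for mouse 33 and 2431 for mouse 34. The lists were not uniform: 7 of the 18 uptake genes (38.9%) were lowest in mouse 31, not far from the 26.6% of all genes. Of 19 lysosome genes 8 were highest in mouse 29 and 6 in mouse 31, against 16.2% of all genes for either mouse. Proliferation genes were lowest in mouse 29 for 10 of 10, against 35.2% of all genes, and Mki67 was at 198 CPM for mouse 27, 42.6 for mouse 29, 96.6 for mouse 31, 82.0 for mouse 33 and 147 for mouse 34. Summed over the list, members had 113 CPM in mouse 29 and 227 to 571 CPM in the other BCR nodules, and cells with a V(D)J call 576 and 911 to 1789 CPM. Transcripts of 6 plasma cell markers in members summed to 106 CPM in mouse 29 and 211 to 479 CPM elsewhere. The 5 nodules had the same order in all 3 sums, and the part of lymphocyte RNA in the proliferation values was not tested.

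**Figure D3:**
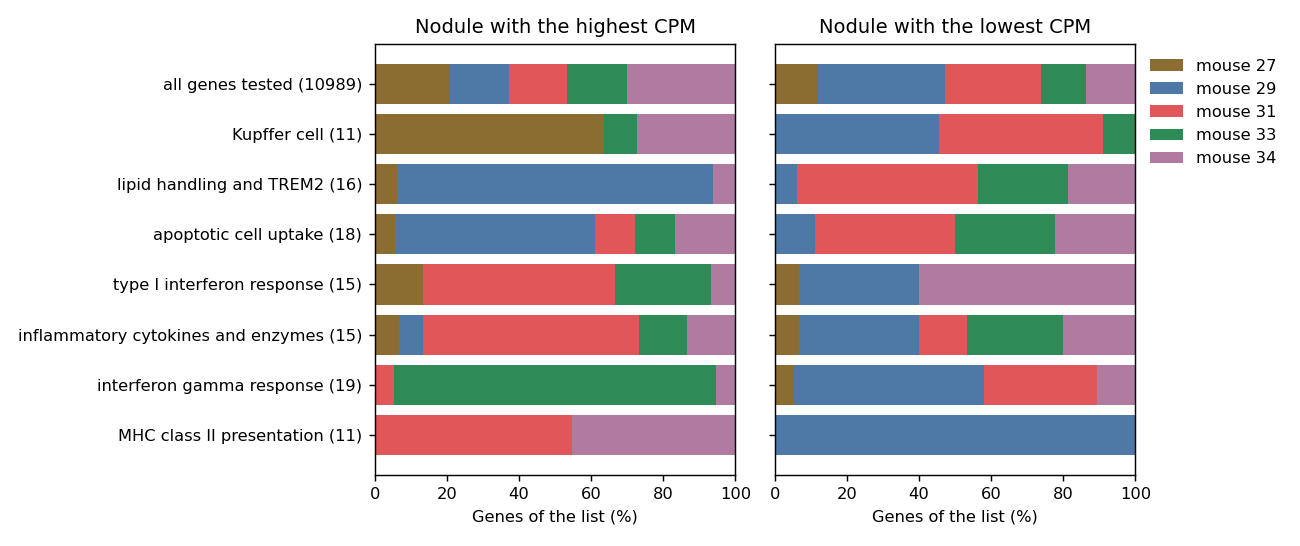
For each gene list, the percent of its genes with their highest (left) or lowest (right) CPM in each of the 5 BCR nodules; colours are mice and the number of genes tested is in brackets. The top bar is the background over all 10989 genes; 17 of 19 interferon gamma genes are highest in mouse 33, 14 of 16 lipid genes highest and 11 of 11 MHC class II genes lowest in mouse 29.

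Genes of tissue-resident macrophages matched the site in part. Of 11 Kupffer cell genes 7 were highest in mouse 27, the liver nodule, against 20.9% of all genes. Clec4f, the lectin that defines Kupffer cells, was read only there among the BCR nodules, as 19 UMIs in 4 of 142 members, which is 19.5 CPM. Id3, a regulator that Kupffer cells need, was at 258 CPM for mouse 27, 68.6 for mouse 29, 28.7 for mouse 31, 34.3 for mouse 33 and 85.3 for mouse 34. Clec1b was at 84.4 CPM for mouse 27, 16.2 for mouse 29, 8.78 for mouse 31, 4.02 for mouse 33 and 23.3 for mouse 34, and Cd5l, a secreted protein of resident macrophages, at 128 CPM for mouse 27, 7.15 for mouse 29, 1.76 for mouse 31, 81.5 for mouse 33 and 48.1 for mouse 34. Mouse 27 was highest for each, and mouse 33 came next for Cd5l. Timd4, which binds phosphatidylserine on dying cells, was at 22.6 CPM for mouse 27, 0 for mouse 29, 8.19 for mouse 31, 10.7 for mouse 33 and 58.9 for mouse 34, highest in mouse 34. Of 10 splenic genes 1 was highest in the spleen nodule, against 16.2% of all genes. Spic, the factor of red pulp macrophages, was at 91.6 CPM for mouse 27, 17.9 for mouse 29, 21.7 for mouse 31, 47.7 for mouse 33 and 21.7 for mouse 34, and Vcam1 at 525 CPM for mouse 27, 243 for mouse 29, 198 for mouse 31, 358 for mouse 33 and 369 for mouse 34, both highest in mouse 27. The defining genes of alveolar macrophages were nearly absent, lung nodules included: Siglecf had 1 UMI (mouse 29) and Car4 5 UMIs (mouse 33) in all 5 BCR nodules. Other genes of the alveolar list were nevertheless high in mouse 29, with Atp6v0d2, a proton pump subunit, at 35.0 CPM for mouse 27, 1082 for mouse 29, 24.6 for mouse 31, 75.6 for mouse 33 and 89.9 for mouse 34 and Fabp4, a fatty acid carrier, at 909.8 CPM against 1.17 to 459 CPM elsewhere.

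Complement genes beyond C1q were spread over the nodules. Of 16 tested, 7 were highest in mouse 33 and 9 lowest in mouse 31, against 16.5% and 26.6% of all genes. C3, the central component, was at 169 CPM for mouse 27, 41.6 for mouse 29, 45.1 for mouse 31, 1091 for mouse 33 and 236 for mouse 34. Cfb, the protease of the alternative pathway, was at 152 CPM for mouse 27, 4.22 for mouse 29, 167 for mouse 31, 464 for mouse 33 and 127 for mouse 34, and Cfp (properdin), which stabilizes it, at 423 CPM for mouse 27, 61.1 for mouse 29, 356 for mouse 31, 277 for mouse 33 and 454 for mouse 34. Mouse 33 was highest for C3 and Cfb, and mouse 29 lowest for these 3. The receptor C3ar1 was highest in mouse 29, with 82.3 CPM for mouse 27, 313 for mouse 29, 22.8 for mouse 31, 54.4 for mouse 33 and 82.2 for mouse 34. Receptors for the Fc part of antibody, which C1q also reads, were lowest in mouse 31 for 5 of 7 genes, against 26.6% of all genes: Fcgr3 was at 262 CPM for mouse 27, 494 for mouse 29, 109 for mouse 31, 343 for mouse 33 and 225 for mouse 34, and the inhibitory Fcgr2b at 143 CPM for mouse 27, 337 for mouse 29, 97.1 for mouse 31, 326 for mouse 33 and 257 for mouse 34.

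Several chemokines separated the thoracic nodules from the spleen nodule of mouse 31. Of 16 in the list, 8 were lowest in mouse 31 and 7 highest in mouse 34, against 26.6% and 30.1% of all genes tested. Ccl8, a ligand for monocytes and T cells, was at 111 CPM for mouse 27, 525 for mouse 29, 8.78 for mouse 31, 1749 for mouse 33 and 1921 for mouse 34. Mice 33 and 34, both with thymus, were high, mouse 29 intermediate and mouse 31 close to nothing. Cxcl13, which draws B cells and follicular T cells through Cxcr5, was at 488 CPM for mouse 27, 24.0 for mouse 29, 1.76 for mouse 31, 948 for mouse 33 and 1684 for mouse 34. Mouse 34 led, mouse 33 followed and mice 29 and 31 were low. Pf4 was at 191 CPM for mouse 27, 188 for mouse 29, 17.6 for mouse 31, 11.5 for mouse 33 and 501 for mouse 34, and Ccl6 at 319 CPM for mouse 27, 627 for mouse 29, 12.9 for mouse 31, 247 for mouse 33 and 301 for mouse 34. Mouse 31 was lowest for Ccl6, and for Pf4 only mouse 33 was lower. Mrc1, the mannose receptor of interstitial macrophages, was at 211 CPM for mouse 27, 361 for mouse 29, 5.85 for mouse 31, 90.6 for mouse 33 and 127 for mouse 34, and Arg1, which breaks down arginine, at 588 CPM for mouse 27, 292 for mouse 29, 11.7 for mouse 31, 106 for mouse 33 and 349 for mouse 34. For the interstitial list 8 of 11 genes were lowest in mouse 31, against 26.6% of all genes.

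These genes were unevenly shared among cells. Cxcl13 was read in 117 of 536 members of mouse 33, of which 12 held 50% of its UMIs, and in 12 of 79 in mouse 34, of which 2 held 50%. Most of its level in mouse 34 thus rests on few cells. In T cells of mice 33 and 34 it was found in 2.47% and 1.02%, and in members in 21.8% and 15.2%. Ccl8 was broader, in 59.0% of members of mouse 33 and 62.0% of mouse 34, with 5.99% and 2.98% of T cells. The top 10% of members of mouse 33 held 51.6% of Cxcl9, 68.3% of Ccl8, 82.8% of Nos2 and 95.3% of Cxcl13 UMIs. In mouse 29 the top 10% held 41.3% of Gpnmb and 81.3% of Spp1 UMIs.

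**Figure D4:**
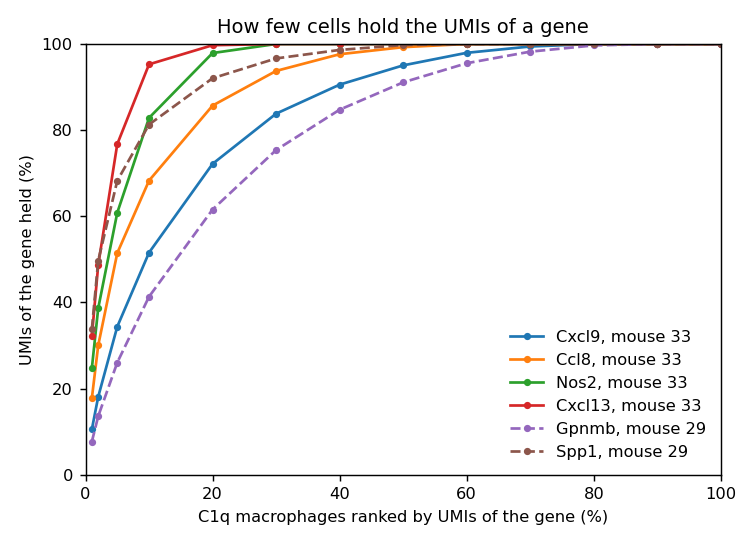
Cumulative percent of the UMIs of a gene (vertical) held by the members ranked from most to fewest UMIs of that gene (horizontal, percent of members). Solid lines are genes in mouse 33 and dashed lines genes in mouse 29; at 10% of members the curve of Cxcl13 stands at 95.3% and that of Gpnmb at 41.3%.

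The site comparison was fitted over the 5 BCR nodules, since mice 30 and 32 had fewer than the 20 members set as a minimum. Liver (mouse 27) and spleen (mouse 31) then had 1 nodule each, assumed to vary like the 3 thoracic nodules. edgeR's quasi-likelihood test with Benjamini-Hochberg adjustment called 0 of 10989 genes between liver and spleen, liver and thoracic or spleen and thoracic nodules (0%). At an unadjusted p under 0.05 there were 297 genes (2.7%), 215 (1.96%) and 689 (6.27%). DESeq2 called 9 of 4598 genes (0.196%), 4 of 10989 (0.0364%) and 63 of 9710 (0.649%) in the same order. Of the 63 genes between spleen and thoracic nodules 26 were higher and 37 lower in spleen, and 18 were among the 268 list genes with an adjusted p (6.72%).

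Between spleen and thoracic nodules DESeq2 called 6 of the 15 list chemokines with an adjusted p, of which Cxcl10 was higher in spleen and 5 lower. Ccl8 differed by -7.16 (SE 0.85, DESeq2 adjusted p = 7.92e-14) on the log2 scale, Ccl7 by -5.11 (SE 1.00, DESeq2 adjusted p = 0.000264), Ccl6 by -4.92 (SE 0.88, DESeq2 adjusted p = 3.3e-05) and Ccl9 by -3.95 (SE 0.92, DESeq2 adjusted p = 0.00547). Each of these chemokines was lower in mouse 31 than in all 3 thoracic nodules. Mrc1 differed by -5.06 (SE 1.08, DESeq2 adjusted p = 0.00149) and Arg1 by -4.33 (SE 0.87, DESeq2 adjusted p = 0.000493). In the other direction stood Isg15 with 3.54 (SE 0.72, DESeq2 adjusted p = 0.000637), Cxcl10 with 2.63 (SE 0.57, DESeq2 adjusted p = 0.00221), Tnf with 2.52 (SE 0.68, DESeq2 adjusted p = 0.0374) and Il23a with 4.43 (SE 1.16, DESeq2 adjusted p = 0.0298). In edgeR the adjusted p of these genes was 0.656 to 0.695. Between liver and thoracic nodules Ccl8 was the one list gene called, with -3.76 (SE 0.77, DESeq2 adjusted p = 0.00397). Between liver and spleen the list genes called were Ccl6 with 4.37 (SE 1.06, DESeq2 adjusted p = 0.0189), Ccl7 with 4.98 (SE 1.15, DESeq2 adjusted p = 0.00803) and Arg1 with 5.39 (SE 1.05, DESeq2 adjusted p = 0.000293). Calls outside the lists included V segments that 1 nodule holds, such as Igkv3-12 in mouse 27, and Xist. With 1 nodule on 1 side, a difference of the site cannot be told apart from a difference of the mouse. The other spleen nodule, mouse 32, was outside this fit. In its members Ccl8 was at 1302 CPM, Ccl7 at 39.1, Ccl6 at 215, Ccl9 at 189, Mrc1 at 918 and Arg1 at 71.6. Each was above mouse 31. Isg15 at 208 CPM, Cxcl10 at 358, Tnf at 32.6 and Il23a at 0 were below mouse 31. Ccl8 and Isg15 lay within the thoracic range, and Ccl9 and Mrc1 above it. The other genes lay below all thoracic nodules.

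The 17 C1q macrophages of mouse 32, the spleen TCR nodule, carried genes of the interleukin 4 response and of monocytes. The receptor test as planned could not be run, because both TCR nodules had fewer than 20 members, so mouse 32 was set against the 5 BCR nodules in a fit added after seeing the data, with the minimum lowered to 10 members. Its TCR side is 1 library of 17 cells, and the spread comes from the 5 BCR nodules alone. Of 13 genes of the IL-4 list tested, 8 were above all 5 BCR nodules, and of 13 monocyte genes 12, against 16.7% of 10554 genes. C1q-negative phagocytes of mouse 32 shared this: the monocyte list summed to 9581 CPM in them and 9625 CPM in members, and the IL-4 list to 4805 and 9775 CPM. Both sums in the C1q-negative cells lay above those of the same class in every BCR nodule, at 1218 to 6007 and 474 to 3618 CPM. Ccl24, a chemokine for eosinophils, was at 1491 CPM in mouse 32 and at 6.17 CPM for mouse 27, 8.77 for mouse 29, 1.17 for mouse 31, 1.34 for mouse 33 and 4.65 for mouse 34. Chil3, a chitinase-like protein of alternatively activated macrophages and neutrophils, was at 6734 CPM in mouse 32 and at 129 CPM for mouse 27, 1716 for mouse 29, 88.4 for mouse 31, 146 for mouse 33 and 195 for mouse 34. Mouse 32 was highest for Ccl24 and Chil3, and mouse 29 next. Chil3 belongs to both the IL-4 and the monocyte list, and its 6734 CPM is the larger part of each sum in members. Arg1 of the IL-4 list was at 71.6 CPM in mouse 32, above mouse 31 at 11.7 CPM. The other BCR nodules had 106 to 588 CPM of Arg1. Mgl2, a lectin induced by interleukin 4, was at 260.5 CPM against 0 to 8.19 CPM, and Ear2 at 443 CPM against 1.61 to 31.9 CPM. Monocyte genes were high too: Ly6c2 was at 260.5 CPM against 0 to 36.5, Ccr2 at 208 against 4.65 to 127 and S100a4 at 781 against 65.4 to 466 CPM. The inflammatory list lay below all BCR nodules for 10 of 15 genes and the lysosome list for 10 of 19, against 34.7% of all genes.

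edgeR called 0 of 10554 genes (0%; 697 at an unadjusted p under 0.05, 6.6%), and DESeq2 called 13 of 8670 (0.15%), 11 higher and 2 lower in mouse 32. Ccl24 differed by 8.41 (SE 0.94, DESeq2 adjusted p = 2.71e-15), Mgl2 by 6.48 (SE 1.21, DESeq2 adjusted p = 9.69e-05) and Ear2 by 4.97 (SE 1.15, DESeq2 adjusted p = 0.0138). The lysosomal membrane protein Cd63 was lower, with -2.42 (SE 0.58, DESeq2 adjusted p = 0.0233), at 247 CPM against 1014 to 1856 CPM. In edgeR the adjusted p of these 4 genes was 0.0708 (Ccl24) to 0.734. Few cells stand behind these levels: Ccl24 had 229 UMIs in 9 of 17 members, of which 2 held 50%. Chil3 had 1034 UMIs in 13, of which 2 held 50%. Ear2 had 68 UMIs in 6 members, 42 of them in 1 cell, and Ly6c2 had 40 UMIs in 7, 20 of them in 1 cell. Of the other monocyte genes, Ms4a4c had 6 UMIs, 5 of them in 1 cell. Ccr2, S100a4 and F10 were spread more widely, over 8, 10 and 13 members. Chil3 was found in 14.8% of T cells of mouse 32 and Ccl24 in 0.148%. The neutrophil markers summed to 150 CPM in the members of mouse 32 and to 22330 CPM in its C1q-negative phagocytes, and their part in the Chil3 level was not tested.

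The members of mice 27 and 34 held cells with Xist and cells with Y-linked transcripts. Xist is made in female cells, and Ddx3y, Eif2s3y, Kdm5d and Uty lie on the Y chromosome. In mouse 27, 25 of 142 members had Xist UMIs only, 60 had Y-linked UMIs only, 20 had both and 37 had neither. Its T cells had 313, 3, 7 and 234 of 557 in the same order, and its cells with a V(D)J call 1657, 0, 4 and 113 of 1774. Y-linked transcripts were thus frequent in the macrophages and nearly absent from lymphocytes of the same nodule. In mouse 34, 24 of 79 members had Xist only, 26 Y-linked only, 7 both and 22 neither, and its C1q-negative phagocytes had 2, 26, 2 and 7 of 37. Its T cells had 465, 296, 81 and 331 of 1173, but 1229 of 1435 cells with a V(D)J call had Y-linked UMIs only and 10 Xist only. Mouse 31 had no Xist UMI in members and Y-linked UMIs in 95 of 253, and T cells had them in 348 of 879, while only 67 of 4004 cells with a V(D)J call held Y-linked UMIs. Members of mice 29, 33 and 32 held Xist and at most 1 Y-linked UMI. A gene level of mouse 27 or 34 may therefore be a mean over cells of both kinds. In mouse 27 Xist was at 523 CPM in cells with a V(D)J call and at 149 CPM in members. In mouse 34 Y-linked transcripts were at 256 CPM in cells with a V(D)J call and at 141 CPM in members. The part of free RNA in the Xist and Y-linked UMIs of members was not tested. With these mice left out, the shares of C1q macrophages among cells were 2.23% to 5.37% in the BCR nodules and at most 0.127% in the TCR nodules.

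**Figure D5:**
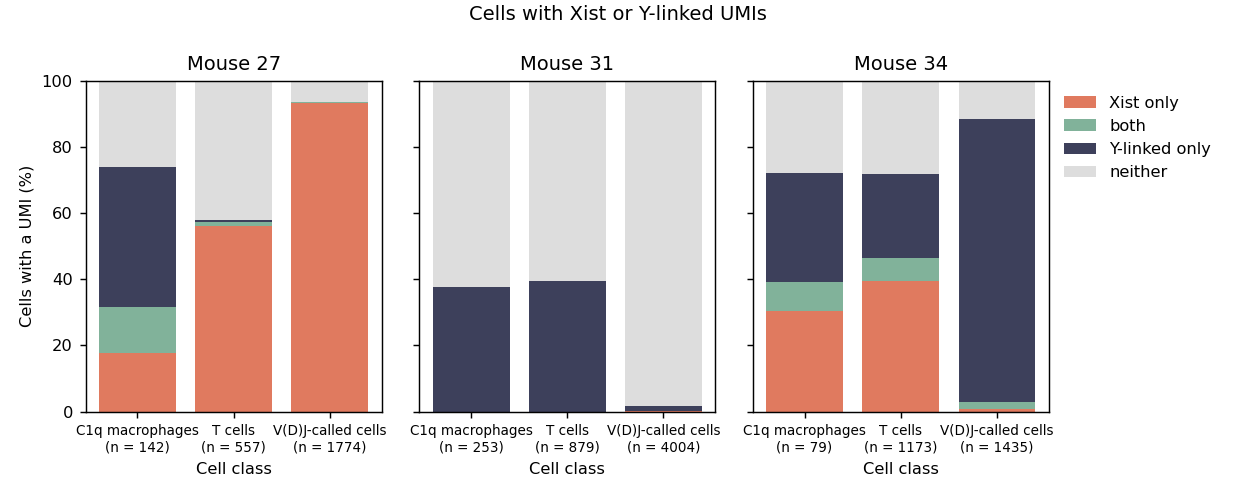
Percent of cells with UMIs of Xist only, of Y-linked genes only (Ddx3y, Eif2s3y, Kdm5d, Uty), of both or of neither, in C1q macrophages, T cells and cells with a V(D)J call of mice 27, 31 and 34. In mouse 27 the Y-linked class takes 60 of 142 macrophages and 3 of 557 T cells.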

How the data were processed

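Single-cell RNA libraries of 7 nodules were analysed from the deposited tables, in which the authors give raw UMI counts of 32285 genes for called cells, with no normalization. The submitters' processing notes name GRCm38 and mm10; the aligner, annotation and cell-calling rule are not given in the sources used here, and which transcript end was read was not settled, since labels and methods name kits for opposite ends. Nodules were dissociated and dead cells removed. V(D)J barcodes came from the study's SeekSoulTools output. No doublet caller was run; members in the top 5% of UMIs were left out as an alternative.

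Members, gene lists and tests were chosen with earlier results of these data known. UMIs were summed per mouse over members and fitted with edgeR 4.0.16 (TMM, filterByExpr, quasi-likelihood test) and DESeq2 1.42.0 in R 4.3.3, with an adjusted p of 0.05 over all genes tested. The planned term for the receptor dropped out, since only BCR nodules reached 20 members. Shares were compared by exact permutation over mice. Genes were named as the 3 of each of 23 lists with the highest mean CPM, Eif3e, site markers and the 20 genes highest against C1q-negative phagocytes; others were chosen after their values were seen. The mean CPM of the rule covers all 7 libraries, including the single member of mouse 30. Scripts were tested on simulated data. Some single-gene values are not reported here. Intervals (95%) cover counting error only. Labels do not say which cultures or batches the libraries shared.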

Additional observations from a re-analysis of the deposited data

Results flagged for a closer look

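In the members of the 5 BCR nodules, 71 values were checked, the named list genes and the 2 shares. By Dixon's criterion 17 of the 71 had 1 nodule set far apart from the other 4. Normally distributed values meet it in about 1 of 20 groups, but CPM were not transformed, and their own rate was not tested. In all 17 the nodule set apart was the highest. For Clec4f, Car4 and Siglecf the other 4 nodules were at 0 CPM, which fixes the outcome. Mouse 29, the lung nodule, stood apart for 6 of them: Atp6v0d2 at 1082 CPM, Cd36 at 1061 CPM, Chil3 at 1716 CPM, Lgals3, a galactose-binding lectin, at 2788 CPM, Lilrb4a, an inhibitory receptor, at 440.0 CPM, and Siglecf at 0.325 CPM, which is 1 UMI. The liver nodule of mouse 27 stood apart for 4 genes of resident macrophages, Clec1b at 84.4 CPM, Clec4f at 19.5 CPM, Id3 at 258 CPM and Vsig4 at 25.7 CPM. The spleen nodule of mouse 31 stood apart for Ccl4 at 5728 CPM, Ifih1 at 1678 CPM, Isg15 at 2040.5 CPM and Lyz2 at 14629 CPM. The thymus nodule of mouse 33 stood apart for C3 at 1091 CPM, Gbp2 at 499.6 CPM and Car4 at 1.34 CPM, which is 5 UMIs. Clec4f in mouse 27 came from 4 cells and Vsig4 from 9 cells.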

How the results depend on the processing

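No paired analysis was possible because the BCR and TCR nodules and the sites are of different mice. The difference in the share of C1q macrophages among cells, TCR minus BCR nodules, ran from -3.65 to -1.51 percentage points over 16 alternatives, and that among phagocytes from -79.4 to -59.0 over 17. Every BCR nodule lay above both TCR nodules in each of them. The first share moved most with all 3 C1q genes and 2 macrophage genes required (-1.52) and with cells thinned to 1000 UMIs (-1.51). Leaving out 1 mouse at a time gave -3.10 to -2.04 and -74.8 to -66.6 percentage points.

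List genes highest or lowest in 1 nodule were counted over 11 alternatives. Leaving out each other nodule was among them, which can only keep or raise a count. Counts were 16 to 18 for interferon gamma in mouse 33 and 7 to 8 for Kupffer cell genes in mouse 27. Mouse 29 had 9 to 11 for MHC class II, 12 to 14 for lipid handling and 7 to 11 for apoptotic cell uptake. Mouse 31 had 8 to 11 for type I interferon and 6 to 10 for inflammatory genes. Shares over all genes moved too in the alternatives that kept all nodules. The share highest in mouse 33 was 16.5% to 19.6%, in mouse 27 19.5% to 25.2% and in mouse 31 15.2% to 17.9%. In mouse 29 the share highest was 15.8% to 16.9% and the share lowest 22.5% to 35.2%.

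The counts of genes called, 0 in edgeR for each comparison, were the least stable values. DESeq2 called 9 genes for liver against spleen, 4 for liver against thoracic, 63 for spleen against thoracic nodules and 13 for mouse 32 against the BCR nodules. Without a filter on low counts edgeR called 4, 2, 25 and 6 in that order. Thinned to 1000 UMIs per member it called 1 and 2 genes for liver and for spleen against thoracic nodules. Leaving out 1 mouse gave 0 to 0, 0 to 1, 0 to 9 and 0 to 2 genes, with all calls made without mouse 29. For mouse 32 the stricter conditions gave 3 genes, 3 summed C1q UMIs 1, no V(D)J call 2, no B cell gene UMIs 6 and no cells in the top 5% of UMIs 1. Under the stricter conditions mouse 32 had 9 members, below the minimum of 10, so the minimum was lowered further for that setting. Genes tested without the filter numbered 19020 for each pair of sites and 19062 for mouse 32. With thinning 5044 genes were tested for the sites, and without mouse 29 10108 for the sites and 9564 for mouse 32. The other settings named for mouse 32 had 8407 to 10543 genes tested. The cause of these changes in the counts was not tested. The remaining alternatives gave 0 genes.

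Some alternatives could not be run: a term for the site in the receptor fit, since 1 TCR nodule was fitted; the site fits without a receptor term, since it had already dropped out; and the fits without mouse 27 or 31 where that mouse is the whole group. The fit of mouse 32, the neutrophil-free phagocytes, the alternatives for the lists and the omission of mice 27 and 34 were chosen after seeing the data. Depth limits mouse 32, where 3 UMIs are 19.5 CPM, and mouse 30, with 1 member.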
